A study of Acer rubrum with 15 samples.

Results

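The siRNAs described here are 1603 predicted small interfering RNAs from red maple leaves that had a count above 0 in all 15 small-RNA libraries of a light and temperature experiment. They were 1603 of the 7972 predicted siRNAs in the deposited table, and the other 6369 were at 0 in at least 1 library. They were selected on their counts in every library and on no contrast between groups, but this left out any siRNA that was at 0 in a whole group, so differences between presence and absence cannot appear among these siRNAs. It also left out siRNAs at 0 in only some libraries of a group. Shares and directions set beside all siRNAs tested thus partly follow from the rule. They are called shared siRNAs from here on. Their names (novel_sir and a number) come without a sequence, position or description in the files, so none is assigned to a locus, a target or a pathway.

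The leaves came from cuttings of Acer rubrum 'Autumn Blaze', a red maple planted for its autumn leaves, and the study concerns leaf colour change. Control leaves were taken on day 0 from cuttings kept in an ordinary greenhouse, with no light level given in the labels. The other leaves were taken on day 14 of a regime: CC had 100% light and days of 30 °C with nights of 20 °C, CL had 40% light at the same temperatures, LC had 100% light and days of 15 °C with nights of 5 °C, and LL had 40% light at 15 °C and 5 °C. Each of the 5 groups held 3 libraries that the labels call biological replicates. No source says whether these were separate plants, and the p-values cover only the spread among the libraries, which may be technical.

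Plant siRNAs are cut by Dicer-like enzymes from double-stranded RNA, which RNA-dependent RNA polymerases often make, and are loaded into Argonaute proteins. One class directs DNA methylation at transposons and repeats, another arises from loci whose transcripts were first cut by a microRNA, and others come from inverted repeats or overlapping transcripts. The names in this table do not tell these classes apart. In leaves, such RNAs are known for silencing transposons, for controlling auxin response factors and resistance genes, and for defence against viruses.

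Library totals ran from 15652847 to 20822592 counts, of which siRNAs took 2.27% to 3.73%. The shared siRNAs held 85.6% to 92.4% of the siRNA counts of a library. The LC libraries had the lowest totals of all, 15652847 to 16291802, and the lowest share of intergenic reads, 46.0% to 50.2% against 51.4% to 61.7% in the other 12. They listed 2908 to 3286 siRNAs, whereas CL libraries listed 5038 to 5097. In principal components of the shared siRNAs the first component, with 25.6% of the variance, placed the LC libraries at 21.1 to 27.7 and every other library at 0.08 or lower. LC replicate 1 stood apart from the other 2 on the second component (-23.7 against 3.07 and 1.98), and CC replicate 1 had the lowest value on the third (-23.1). The part of depth and library composition in the LC results given here was not tested.

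Summed over all 1603, the level was 25751 ± 2429 counts per 1000000 of the library total (CPM) in Control (SD, n = 3), 27818 ± 4898 in CC, 26309 ± 1701 in CL, 29167 ± 4873 in LC and 21455 ± 2534 in LL. Single libraries ran from 19717 in LL replicate 2 to 33817 in LC replicate 1. The groups overlapped except LL and CL, where the highest LL library (24363) lay under the lowest CL library (25186). This order depends on scaling: with the siRNA total as library size the mean was 25372 in LL and 25004 in CL. In bulk leaf samples, less of an siRNA per cell and fewer cells that make it cannot be told apart.

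The median shared siRNA had a mean of 4.24 CPM over the 15 libraries, with 1.40 at the 5th and 37.2 at the 95th percentile. Only 2 exceeded 1000 CPM, 36 exceeded 100, and 1236 lay between 1 and 10. The 10 most abundant held 37.0% of all their counts. By comparison, the 355 siRNAs that were at 0 in exactly 1 library had a median of 1.46 CPM, and for 91 of them that library was LC replicate 1. Just inside the choice were novel_sir8825, novel_sir6558, novel_sir3112, novel_sir2541 and novel_sir3244, with a smallest count of 10 and means of 0.851 to 0.980 CPM. Just outside were novel_sir8383, novel_sir6600 and novel_sir2677, at 0 in LC replicate 1 with means of 10.1 to 10.6 CPM, and novel_sir4650 and novel_sir38, at 0 in LC replicate 2 with means of 8.55 and 8.23. Since no siRNA count between 1 and 9 occurs in the table, a listed 0 can hide up to that many reads.

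The most abundant shared siRNA was novel_sir7618, with a mean of 4059 CPM. It stood at 4467, 3659 and 5079 in Control, 7441, 7107 and 3101 in CC, 3957, 3980 and 3988 in CL, 6701, 3237 and 1563 in LC, and 2702, 572 and 3333 in LL. The CL libraries lay close together, whereas the CC, LC and LL libraries were widely spread. It was called in 0 of the 9 comparisons.

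The second, novel_sir9069, had a mean of 2056 CPM and was highest in the LC leaves. Its levels were 4300, 4400 and 2962 in LC, 1947, 1862 and 2763 in Control, 1683, 1209 and 1773 in CC, 1274, 1261 and 1615 in CL, and 1167, 1123 and 1505 in LL. All 3 LC libraries were above every other library. The level in LC was 2.50-fold that in CC (log2 difference 1.32 ± 0.30 SE, adjusted p = 0.00842) and 3.07-fold that in LL (LL minus LC -1.62 ± 0.30, adjusted p = 0.00195). LC against Control was not called (0.83 ± 0.29, adjusted p = 0.0809). The interaction was called (-1.45 ± 0.42, adjusted p = 0.0404), but this was lost with a replicate block and without LC replicate 1 or 2, among other settings. Each adjusted p of an siRNA is from the quasi-likelihood test of edgeR, adjusted by Benjamini-Hochberg over all 5203 siRNAs tested, and an siRNA is said to be called where this value is under 0.05.

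The next 8 in abundance were novel_sir4163, novel_sir5961, novel_sir2612, novel_sir8740, novel_sir1987, novel_sir9029, novel_sir8502 and novel_sir4643, with means of 276 to 700 CPM. For novel_sir4643, the LC libraries held 191, 79.1 and 31.7 CPM and the CC libraries 639, 447 and 230. The LC libraries were lower than all 3 CC libraries (log2 difference -2.13 ± 0.61, adjusted p = 0.0288), but the call was lost without CC replicate 1 or 2, without LC replicate 2 or 3, and with only these groups in the fit. For novel_sir8740, the mean was 654 ± 127 CPM in LC and 308 ± 55.5 in LL (log2 difference, LL minus LC, -1.08 ± 0.30, adjusted p = 0.0225), and this call was lost without LC replicate 2, LL replicate 1 or LL replicate 2. The plot of the 10 most abundant siRNAs by library shows both the high LC levels of novel_sir9069 and the wide scatter within groups of most others.

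**Figure D1:**
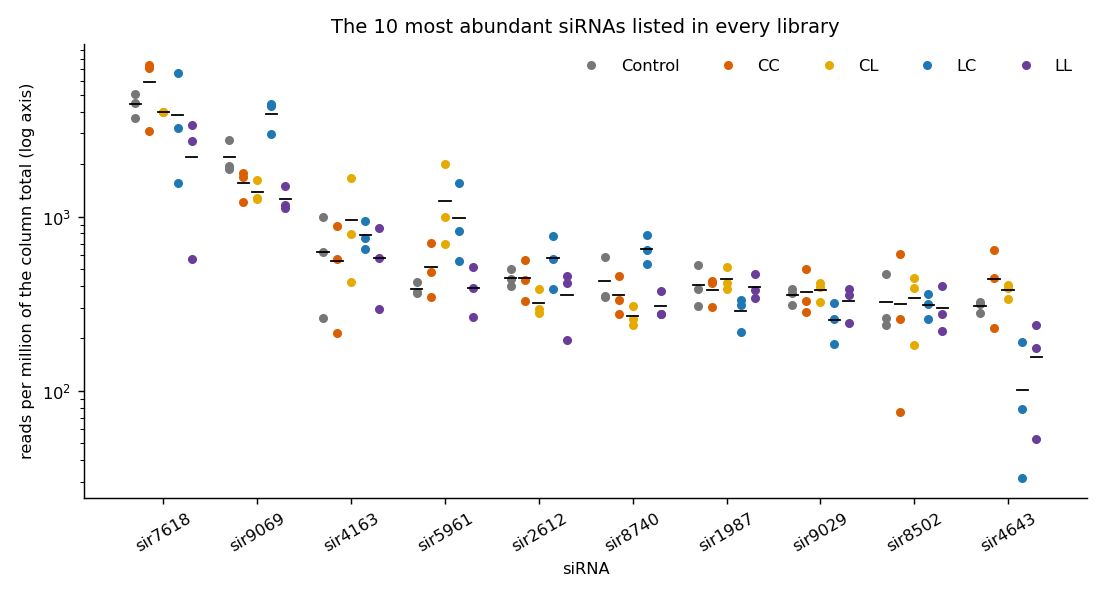
Levels of the 10 most abundant shared siRNAs, in CPM on a log axis, with 1 point per library, colours for the 5 groups and black bars for group means. The 3 LC points of novel_sir9069 (2962 to 4400) lie above all its other points, while the LL points of novel_sir7618 spread from 572 to 3333.

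Some less abundant siRNAs followed the profile of novel_sir9069 closely. Over the 15 libraries, Pearson's r of the log2 levels with novel_sir9069 was 0.98 for novel_sir9194, 0.971 for novel_sir9107, 0.956 for novel_sir9112, 0.954 for novel_sir8735 and 0.944 for novel_sir9193. In all, 7 shared siRNAs had an r over 0.9 with it. Their LC means were the highest of the 5 groups: novel_sir9107 stood at 314 ± 69.2 CPM in LC and at 78.2 ± 8.37 to 163 ± 36.3 in the other groups, and novel_sir9112 at 231 ± 52.7 in LC and 27.9 ± 4.36 to 86.0 ± 15.2 elsewhere. These 15 points share library depth and group, so r is a description of the profiles only. For novel_sir7618 the closest profile was that of novel_sir7637 (r = 0.936), at a mean of 6.74 CPM.

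Group means of most shared siRNAs lay within 4-fold of each other. The ratio of the highest to the lowest group mean had a median of 2.25, and for 606 of 1603 (37.8%) it was under 2. It exceeded 4 for 178 siRNAs and 10 for 13, and reached 102 for novel_sir599, whose level in LL replicate 1 rests on few reads. The coefficient of variation over the 15 libraries had a median of 0.416. Within groups its median was 0.195 in CL, 0.211 in LL, 0.230 in Control, 0.333 in LC and 0.335 in CC, and by this measure the CC and LC libraries scattered more than the CL and LL libraries. The steadiest were novel_sir9177, with 1.05 to 1.80 CPM over the 15 libraries, and novel_sir4200, with 4.22 to 8.17. Both had a coefficient of variation of 0.167.

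Libraries of the same group resembled each other most in CL and LL and least in CC. The correlation between 2 libraries of their log2 deviations from each siRNA's mean had a median of 0.601 for the CL pairs, 0.576 for LL, 0.306 for Control, 0.297 for LC and 0.088 for CC. Over the 90 pairs of libraries from different groups it was -0.151. These values run across siRNAs, which are not independent replicates. The group mean was highest in CL for 425 siRNAs, in LC for 420, in CC for 307, in LL for 283 and in Control for 168. It was lowest in LL for 397, in LC for 395, in Control for 321, in CL for 271 and in CC for 219.

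All 3 LC libraries were above the other 12 for 73 shared siRNAs (4.31% of all siRNAs tested did so) and below them for 114 (6.8% of all tested). For CL, 81 stood above all other libraries (7.44% of all tested) and 23 below (0.519%). For LL, 19 stood above (2.11%) and 43 below (1.17%). Control had 14 above (0.673%) and 12 below (0.384%), and CC had 12 above (0.634%) and 13 below (0.308%). As shares of the 1603, these were 4.55% and 7.11% for LC and 5.05% and 1.43% for CL.

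The comparison of LC with CC shows the effect of temperature at full light. Of the 1603 shared siRNAs, 299 (18.7%) were called, where 15.5% of all siRNAs tested were called. In the cool leaves 119 were higher (3.15% of all tested were called higher) and 180 were lower (12.4% of all tested). The median log2 difference was -0.06 over the shared siRNAs and -0.46 over all tested. The rule bears on this gap and on the split, since it left out siRNAs at 0 in any LC library. Of siRNAs at 0 in exactly 1 library, 91, 35 and 55 were at 0 in LC replicates 1, 2 and 3. For CC replicates 1, 2 and 3 these counts were 27, 18 and 7. The gap can therefore not be read as a trait of the shared siRNAs, and this holds for the other contrasts with LC. Without CC replicate 1 the count was 194, and with only these 2 groups in the fit it was 106.

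The clearest rise in the cool leaves under full light was that of novel_sir599. It stood at 292, 215 and 253 CPM in LC, and at 9.71, 3.84 and 5.13 in CC, 8.12, 7.42 and 8.78 in Control, 4.36, 5.52 and 11.7 in CL and 1.16, 2.87 and 3.40 in LL. Each LC library was thus more than 10-fold above every other library. The LC mean was 40.7-fold the CC mean (log2 difference 5.35 ± 0.51, adjusted p = 5.61e-05). A similar profile at a lower level was that of novel_sir5967, with 20.1, 23.0 and 17.6 CPM in LC and 1.19 to 3.59 in the other 12 libraries. It was 7.10-fold higher in LC than in CC (2.82 ± 0.32, adjusted p = 0.000104). Their log2 profiles correlated with an r of 0.928 over the 15 libraries.

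Smaller rises in LC over CC were seen for novel_sir8532, from 0.898 ± 0.315 to 4.56 ± 2.41 CPM (log2 difference 2.34 ± 0.46, adjusted p = 0.00336), and for novel_sir8794, from 2.92 ± 0.51 to 13.2 ± 4.81 (2.18 ± 0.29, adjusted p = 0.000223). The CC levels of novel_sir8532 rest on few reads. Among those lower in the cool leaves, novel_sir1583 stood at 0.859, 1.11 and 1.09 CPM in LC against 7.91, 6.42 and 6.58 in CC. The groups were far apart, and CC was 6.83-fold higher (log2 difference, LC minus CC, -2.77 ± 0.28, adjusted p = 5.61e-05). Likewise novel_sir5293 had 1.54, 1.18 and 1.73 CPM in LC and 13.5, 8.36 and 6.83 in CC (-2.69 ± 0.39, adjusted p = 0.000402). The LC levels of these 2 rest on few reads. The remaining large decreases, with log2 differences of -2.90 to -2.73, were those of novel_sir5165, novel_sir2527 and novel_sir1144, also on few reads in LC.

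**Figure D2:**
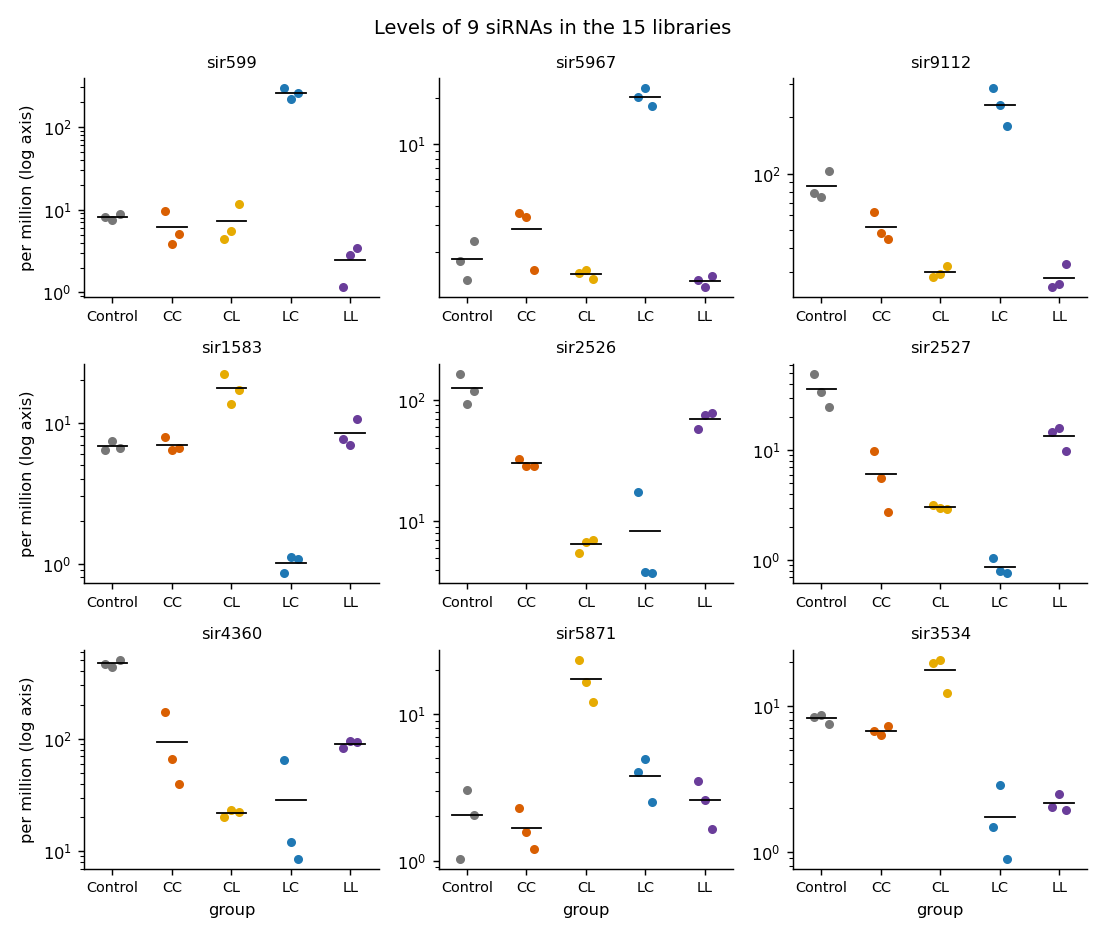
Levels of 9 shared siRNAs in each of the 15 libraries, in CPM on log axes, with bars at the group means. The LC points of novel_sir599, novel_sir5967 and novel_sir9112 stand above all others, those of novel_sir1583 below, and the Control points of novel_sir2526, novel_sir2527 and novel_sir4360 stand above all others.

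At 40% light the same temperature contrast, LL against CL, gave 109 called siRNAs (6.8% of the 1603, against 2.71% of all tested). Of these, 21 were higher in the cool leaves (0.73% of all tested) and 88 lower (1.98%). The split depends on scaling: it was 40 and 65 with TMM factors, 39 and 72 with RLE size factors and 44 and 52 with the siRNA total as library size. Leaving out 1 library of either group left 13 (without LL replicate 2) to 40 (without LL replicate 3) calls: 21 without CL replicate 1 or LL replicate 1, 15 without CL replicate 2 and 23 without CL replicate 3. With only LL and CL in the fit the count was instead 375, above the 106 of LC against CC under the same setting. Which temperature contrast has more calls thus depends on the fit.

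In this contrast novel_sir2526 was higher in the cool leaves, with 57.2, 74.7 and 77.3 CPM in LL against 5.52, 6.82 and 7.08 in CL. The LL mean was 10.8-fold the CL mean (log2 difference 3.43 ± 0.51, adjusted p = 0.00593). A further rise was that of novel_sir8393, from 1.70 ± 0.38 to 10.9 ± 0.33 CPM (2.68 ± 0.42, adjusted p = 0.00633). In the other direction, novel_sir3534 had 2.04, 2.49 and 1.94 CPM in LL and 19.7, 20.6 and 12.3 in CL (-3.02 ± 0.36, adjusted p = 0.00257). For novel_sir5393 the values were 2.64, 2.39 and 0.873 in LL and 16.8, 15.8 and 17.3 in CL (-3.08 ± 0.51, adjusted p = 0.00732). These 4 were chosen for both traits: naming required groups that did not overlap, and they are the 4 of 10 named calls of this contrast kept in every alternative.

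Some siRNAs were called for temperature at both light levels. Of the 119 called higher in LC over CC, 6 were also called higher in LL over CL, which is 5.04% of the first set and 28.6% of the second, where 7.42% of all shared siRNAs were called higher in LC over CC. Of the 180 called lower, 17 were called lower at 40% light as well (9.44% and 19.3%), where 11.2% of all shared siRNAs were called lower in LC. Opposite calls were made for 9 siRNAs that were higher in LC and lower in LL, and for 3 that were lower in LC and higher in LL. The 9 were 10.2% of the 88 called lower in LL, beside the 7.42% of all shared siRNAs. The 3 were 14.3% of the 21 called higher in LL, beside the 11.2%. These contrasts share no library, and the overlap was neither tested nor counted over all siRNAs tested.

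The light comparison in the warm regime, CL against CC, called 13 shared siRNAs (0.811%, against 0.365% of all tested), 9 higher (0.192% of all tested) and 4 lower (0.173%) at 40% light. With only these 2 groups in the fit, edgeR called 0 of the 1603, of which 335 had an unadjusted p under 0.05, and DESeq2 on all groups called 189. Splits under other scalings were 12 higher and 20 lower (TMM factors) and 13 and 13 (RLE size factors). Counts ran from 3 without CL replicate 1 to 18 without CC replicate 3, with 4 without CL replicate 3, 5 without CC replicate 2 and 8 without CL replicate 2.

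Of the 9 named calls of this contrast, 3 were lost only with those 2 groups in the fit, where their adjusted p was 0.0709. All 3 siRNAs were higher at 40% light. For novel_sir5871 the CL libraries held 23.3, 16.5 and 11.9 CPM and the CC libraries 2.28, 1.56 and 1.20 (log2 difference 3.36 ± 0.45, adjusted p = 0.00257). The levels of novel_sir7031 were 11.8, 12.1 and 13.3 in CL and 2.14, 1.60 and 1.55 in CC (2.81 ± 0.29, adjusted p = 0.000618). Those of novel_sir6410 were 12.1, 13.9 and 9.88 in CL and 3.01, 2.97 and 2.49 in CC (2.08 ± 0.28, adjusted p = 0.00257). In each of the 3 the CL libraries lay above all other libraries.

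In the cool regime, light separated more siRNAs: LL against LC called 317 (19.8%, against 17.7% of all tested). Of these, 154 were higher at 40% light (12.6% of all tested were called higher) and 163 lower (5.04%). With the siRNA total as library size the split was 272 higher and 86 lower, since that scaling moved the median of all log2 differences by 0.34. Without LC replicate 3 the count was 210, and without LL replicates 1, 2 and 3 it was 196, 193 and 203.

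The decreases from LC to LL were led by novel_sir599, 102-fold lower in LL (log2 difference -6.67 ± 0.55), and by novel_sir5967, 15.5-fold lower (-3.94 ± 0.34), with adjusted p of 9.81e-06 and 1.03e-05. The LL levels of novel_sir5967 (1.19 to 1.41 CPM) and the LL replicate 1 level of novel_sir599 (1.16 CPM) rest on few reads. For novel_sir9112, the LC libraries held 284, 231 and 178 CPM and the LL libraries 24.9, 25.9 and 32.9 (-3.05 ± 0.26, adjusted p = 1.03e-05). For novel_sir8492 the values were 343, 533 and 287 in LC and 26.5, 53.0 and 64.7 in LL (-3.01 ± 0.43, adjusted p = 0.000307). No LL library of these 4 reached the lowest LC library, which the choice of named siRNAs required. Among the increases, novel_sir3907 had 8.09, 10.1 and 8.44 CPM in LL and 0.921, 1.36 and 1.41 in LC (2.85 ± 0.31, adjusted p = 5.75e-05). The largest among called siRNAs whose groups did not overlap was that of novel_sir2527, with 14.8, 16.0 and 9.90 in LL and 1.04, 0.804 and 0.767 in LC (3.95 ± 0.45, adjusted p = 7.85e-05). The LC levels of novel_sir3907 and novel_sir2527 rest on few reads.

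**Figure D3:**
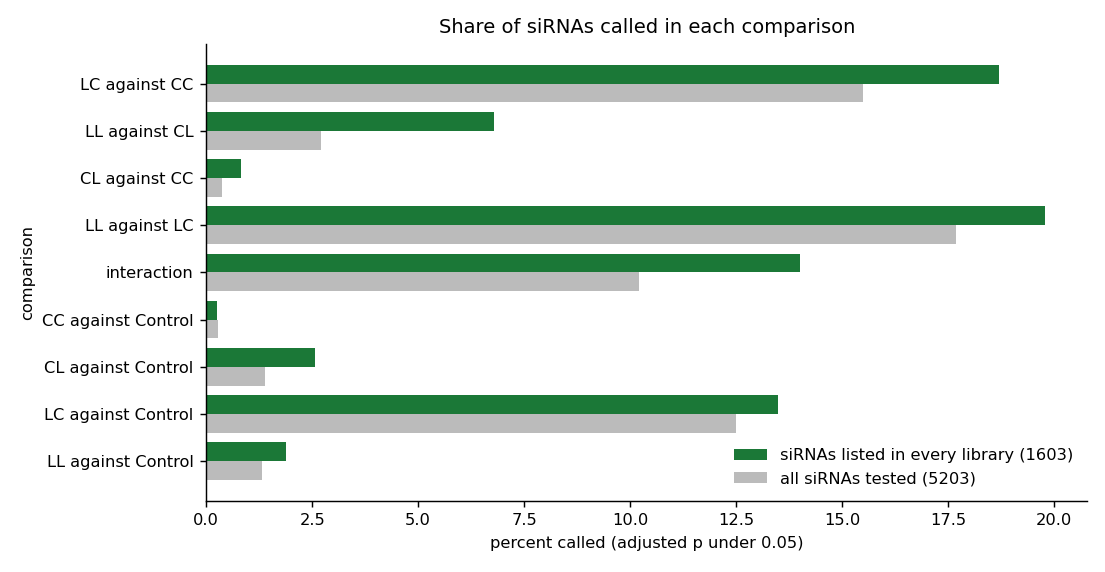
Percent of siRNAs called (adjusted p under 0.05) in each comparison, with green bars for the 1603 shared siRNAs and grey bars for all 5203 siRNAs tested. The bars are longest for LL against LC (19.8% and 17.7%) and LC against CC (18.7% and 15.5%), the 2 contrasts within the day 14 groups that contain LC.

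The interaction, which is the temperature difference at 40% light minus that at full light, was called for 224 shared siRNAs (14.0%, against 10.2% of all tested). It was positive for 101 (6.78% of all tested) and negative for 123 (3.38%). With TMM factors the split was 149 and 100, and with the siRNA total as library size 178 and 81. Of the 224, 116 were higher in the cool leaves at full light and lower at 40% light by the sign of the estimates, 82 went the opposite way, 2 were higher in the cool leaves at both light levels and 24 lower at both. A call for the interaction itself favours estimates of opposite sign. These patterns were not counted over all siRNAs tested, so they are no separate result. Both single contrasts were called with opposite signs for 12. The temperature contrast was called only at full light for 123, only at 40% light for 39 and at neither for 49. The count fell to 111 without CL replicate 2, 141 without CL replicate 3, 145 without LL replicate 1 and 131 without LL replicate 2 or LL replicate 3.

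The strongest interactions were of both signs. For novel_sir599 it was -6.88 ± 0.67 on the log2 scale (adjusted p = 0.000161), for novel_sir8794 -3.58 ± 0.41 (adjusted p = 0.000367) and for novel_sir9118 -3.56 ± 0.50 (adjusted p = 0.000759). The levels of novel_sir9118 were 94.9, 38.0 and 33.2 CPM in LC, 22.7, 15.5 and 21.5 in CC, 12.8, 14.7 and 16.0 in LL and 60.5, 57.1 and 67.1 in CL. At full light all cool libraries were thus above the warm ones, and at 40% light all were under them. Positive interactions were led by novel_sir2526 (5.26 ± 0.70, adjusted p = 0.000598) and novel_sir2527 (4.96 ± 0.60, adjusted p = 0.000477).

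**Figure D4:**
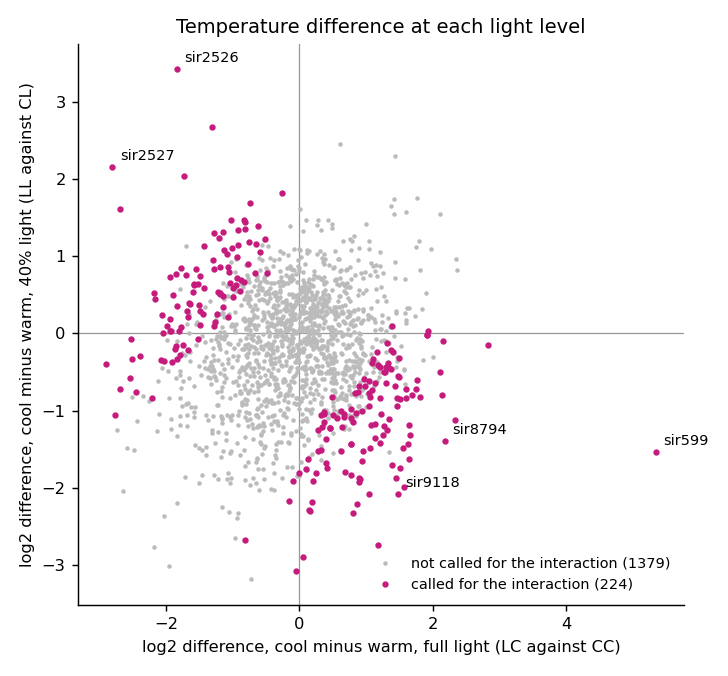
Log2 difference between cool and warm leaves for each shared siRNA, at full light (x axis, LC against CC) and at 40% light (y axis, LL against CL), with the 224 siRNAs called for the interaction in colour. Most coloured points lie in the lower right quadrant (116 siRNAs) and the upper left quadrant (82), with novel_sir599 far to the right and novel_sir2526 at the top.

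Comparisons over time set each day 14 group against the day 0 leaves. They share the 3 Control libraries, and 14 days of time and the move out of the greenhouse cannot be told apart. Against Control, CC had 4 called shared siRNAs (0.250%, against 0.269% of all tested), 2 higher (0.231%) and 2 lower (0.0384%). CL had 41 (2.56%, against 1.38%), 30 higher (1.02%) and 11 lower (0.365%). LC had 216 (13.5%, against 12.5%), 95 higher (3.34%) and 121 lower (9.13%). LL had 30 (1.87%, against 1.31%), 11 higher (0.788%) and 19 lower (0.519%).

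The split of the CL calls was 21 and 21 with TMM factors and 22 and 22 with RLE size factors. For LC it was 60 and 170, and for LL 38 and 19, with the siRNA total as library size. Without 1 library the CC count ran from 1 (without Control replicate 1 or CC replicate 2) to 12 (without CC replicate 3), and was 2 without Control replicate 2 or 3. The CL count ran from 4 (without CL replicate 1) to 9, and the LL count from 5 (without Control replicate 1) to 13 (without Control replicate 2), over each library of those groups and of Control. The LC count was 139 without Control replicate 1 or LC replicate 3, 134 without Control replicate 2 and 118 without Control replicate 3. For CC, the fit with only these 2 groups called 0 in edgeR, with 240 at an unadjusted p under 0.05, and DESeq2 on all groups called 108.

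A few siRNAs that were abundant on day 0 had lower means in every day 14 group, but not every fall was called. Among novel_sir2526, novel_sir2527 and novel_sir4360, only novel_sir2527 was called in CC against Control, and none in LL against Control. The levels of novel_sir2526 were 163, 92.6 and 118 CPM in Control, 32.9, 28.7 and 28.3 in CC and 17.6, 3.84 and 3.77 in LC, and the LL and CL values are those of the temperature contrast at 40% light. Every Control library was above every day 14 library, and LL lay nearest to Control. Its log2 difference from Control was -4.26 ± 0.53 in CL (adjusted p = 0.00125) and -3.89 ± 0.52 in LC (adjusted p = 0.000267).

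The next number in the table, novel_sir2527, had 49.2, 33.6 and 24.8 CPM in Control, 9.95, 5.64 and 2.74 in CC and 3.16, 2.98 and 2.94 in CL, and its LC mean was 41.2-fold under the Control mean (log2 difference -5.35 ± 0.47, adjusted p = 1.93e-05). Its LC levels rest on few reads. In CL novel_sir2527 was also lower than in Control (-3.57 ± 0.42, adjusted p = 0.00125). High Control levels were also found for novel_sir4360, which stood at 467, 436 and 505 CPM in Control, 174, 66.7 and 39.4 in CC, 20.3, 23.4 and 22.2 in CL, 64.4, 12.1 and 8.56 in LC and 83.4, 95.6 and 93.6 in LL. Its Control libraries stood above all others, and LC was 16.6-fold lower (-4.05 ± 0.70, adjusted p = 0.00145). The r of log2 levels was 0.899 between novel_sir2526 and novel_sir2527, and with novel_sir4360 it was 0.929 and 0.895.

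All 4 day 14 groups were lower than Control in novel_sir2456, with 11.2 ± 1.13 CPM in Control (SD, n = 3), 1.99, 2.92 and 2.29 in CC, 1.95, 2.21 and 1.30 in CL, 6.57, 5.75 and 3.51 in LC and 2.97, 3.47 and 3.15 in LL. No day 14 library reached the Control range. The log2 difference was -2.22 ± 0.30 in CC (adjusted p = 0.00264, and 0.165 with only these groups in the fit), -2.62 ± 0.30 in CL (adjusted p = 0.00125), -1.09 ± 0.28 in LC (adjusted p = 0.0209) and -1.81 ± 0.29 in LL (adjusted p = 0.00763). The LC call was lost without LC replicate 3 (adjusted p = 0.085), Control replicate 2 (0.0587) or Control replicate 3 (0.0777), with no filter (0.0573) and with only these groups in the fit (0.0522). In CL against Control, novel_sir5871 was higher (3.08 ± 0.45, adjusted p = 0.00281).

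Against day 0, LC leaves were higher in novel_sir599 (31.2-fold, log2 difference 4.96 ± 0.50, adjusted p = 3.73e-05) and in novel_sir7342, which had 61.8, 46.6 and 36.2 CPM in LC and 10.8, 10.9 and 10.1 in Control (2.18 ± 0.32, adjusted p = 0.00044). They were lower in novel_sir1713, with 1.23, 1.86 and 2.04 in LC and 13.0, 13.3 and 15.7 in Control (-3.03 ± 0.28, adjusted p = 2.01e-05). The groups did not overlap in these 3, which the choice of named siRNAs required. LL leaves were higher than Control in novel_sir3907 (1.83 ± 0.29, adjusted p = 0.00763) and lower in novel_sir7430, with 4.13, 4.12 and 4.56 in LL and 25.1, 18.0 and 15.0 in Control (-2.18 ± 0.34, adjusted p = 0.00682).

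In all, 1029 of the 1603 shared siRNAs (64.2%) were called in none of the 9 comparisons, and 236 in 1. Neither these counts nor the shares by level below were made for all siRNAs tested. They are therefore not shown to be particular to the shared siRNAs. The share called differed with level: in LC against CC, 9.09% of the 275 with a mean of up to 2 CPM were called, 17.0% of the 647 between 2 and 5, 22.2% of the 324 between 5 and 10 and 25.8% of the 357 above 10. Other comparisons did not all follow this order: in LC against Control the shares were 5.45%, 14.2%, 17.0% and 15.1%, and in CL against Control 0.727%, 3.4%, 2.47% and 2.52%. A low count has a wider error, so a missing call at low levels does not show that the level was unchanged.

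The table has no mRNA, so the siRNA machinery itself was not measured. The miRNA families tied to it were: miR168 and miR403, regulators of Argonaute genes, miR162, a regulator of a Dicer-like gene, and miR390, miR828, miR393 and miR482, which are known to start the production of secondary siRNAs from their targets. Of 9 families on this list, 7 were in the table. In LC against CC, 3 of the 7 were higher and none was lower, where 55.9% of all 34 families tested were called. These were miR168, from 1179 ± 438 to 5301 ± 1996 CPM (log2 difference 2.17 ± 0.31, adjusted p = 5.64e-05), miR390, from 50.5 ± 1.6 to 103 ± 2.0 (1.03 ± 0.21, adjusted p = 0.00121), and miR482, from 2274 ± 731 to 3643 ± 1009 (0.68 ± 0.27, adjusted p = 0.0482). The groups overlapped for miR482, with 3081 CPM in CC replicate 1 and 2997 in LC replicate 2. In LL against CL only miR393 was called, lower in the cool leaves (38.2% of all families were called), and in CL against CC miR403 and miR390 were lower (26.5%).

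In LL against LC, miR168 (-2.30 ± 0.31) and miR390 (-1.59 ± 0.22) were lower, each with an adjusted p of 3.1e-05 (44.1% of families were called). The interaction was called for miR168 and miR393, both negative (35.3%). Against Control, LC was higher in miR168, miR403 and miR393 (47.1%), LL was lower in miR168 and miR390 (29.4%), CC was higher in miR403 and miR393 and lower in miR168 (35.3%), and CL was higher in miR393 and lower in miR168 and miR390 (35.3%). No call was made for miR162 or miR828 in any of the 9 comparisons, the latter at 0.656 to 1.20 CPM.

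The numbers in the names carried some order. Pairs of shared siRNAs with consecutive numbers had a mean r of log2 levels of 0.368, and the mean was lower for numbers further apart. This is a description of profiles over 15 libraries that all pairs share.

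**Figure D5:**
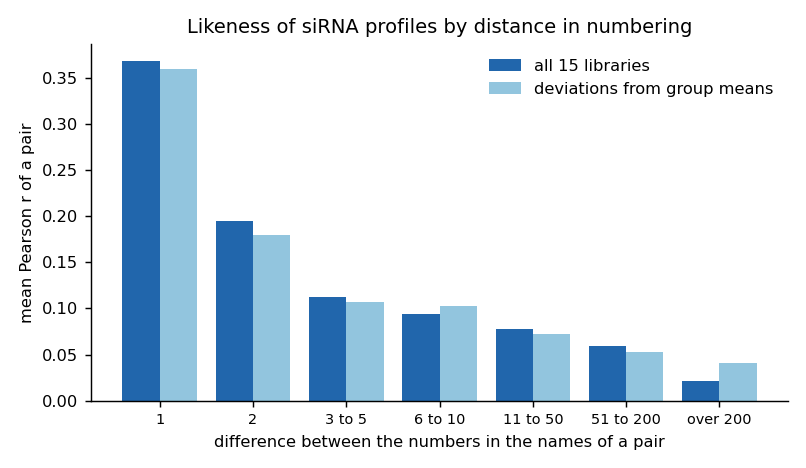
Mean Pearson r of log2 levels over the 15 libraries for pairs of shared siRNAs (y axis), by the difference between the numbers in their names (x axis), for all libraries and for deviations from group means. The bar falls from 0.368 for consecutive numbers to 0.021 for numbers more than 200 apart.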

How the data were processed

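The 15 leaf libraries were made from total RNA with a small-RNA kit and cut from a gel after PCR, per the labels' protocols. The authors deposited 1 table with the counts of each small RNA in each library, as raw whole numbers per the file headers and values. The deposited TPM values equal CPM, that is counts per 1000000 of the column total, within 0.006 for 67235 of 67235 values above 0, so they hold no term for length, and no test used them. How reads were trimmed and aligned, to which build, and how siRNAs were predicted, is not stated in the labels or the file. The column total is the library's depth as far as the table shows it, 15652847 to 20822592 counts.

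Levels are CPM of the column total. All siRNAs that passed filterByExpr with default settings (5203 of 7972, all 1603 shared ones among them) were fitted by quasi-likelihood with edgeR 4.0.16 under R 4.3.3, with the column total as library size, no further scaling and 1 mean per group over all 15 libraries. The biological coefficient of variation was 0.851. SE is the absolute log2 difference over the square root of the F statistic. Families are summed reads of entries with the same miRNA number, tested in the same way (34 families). Comparisons were temperature at each light level, light at each temperature, their interaction and each regime against Control, 9 in all, with adjustment over all siRNAs of a comparison and a threshold of 0.05. The fit was tested on simulated data.

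Named siRNAs are the 10 most abundant, the 5 largest rises and falls of each comparison among called siRNAs whose groups did not overlap, the 5 strongest interactions, the 5 steadiest and the 5 on each side of the rule. The text prints a part of them, chosen for calls that few alternatives changed, and adds siRNAs with like profiles, chosen after their values were seen. The siRNAs, lists, tests and alternatives were chosen with earlier results of these data known. Replicate numbers did not pair the libraries throughout. Over 30 pairs of libraries with the same number, r of deviations from the group means ran from -0.285 to 0.429 (median -0.011). Only for LC and CC was every r over 0.1 (1 of 10 group pairs). For CL and LL r was 0.402, 0.024 and 0.429 for replicates 1, 2 and 3. Whether the numbers mark a pairing in these 2 temperature contrasts was not tested, and the main fit holds no block. The fit with the replicate number as a block called 246 in LC against CC and 89 in LL against CL. Alternatives were TMM factors, RLE size factors, the siRNA total as library size, no filter, counts in at least 8 libraries, DESeq2 1.42.0, a replicate block, only the groups compared, and each library left out. No sequences were printed, since the files give none. Figures were drawn with matplotlib 3.10.9 in Python 3.11.15.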

Additional observations from a re-analysis of the deposited data

Results flagged for a closer look

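The effect of temperature differed between the light levels, by the interaction test in edgeR, for 224 shared siRNAs, against 10.2% of all siRNAs tested. Among the strongest, the interaction on the log2 scale was -6.88 for novel_sir599, -3.58 for novel_sir8794 and -3.56 for novel_sir9118, which were relatively higher in the cool leaves at full light. It was 4.96 for novel_sir2527 and 5.26 for novel_sir2526, which were relatively higher in the cool leaves at 40% light. The LC levels of novel_sir2527 and the LL replicate 1 level of novel_sir599 rest on few reads. These 5 calls were kept in every alternative tried. The LC libraries, which enter each of these values, also had the lowest totals and the lowest share of intergenic reads, and the part of that in these values was not tested.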

How the results depend on the processing

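Of 84 calls of named siRNAs, 45 were kept in every alternative and 39 were lost in at least 1, and none changed sign. Most of these calls were picked as the largest of the main fit, and the alternatives reuse the same libraries. The kept counts therefore do not carry over to the other shared siRNAs. Kept calls were 10 of 12 in LC against CC, 10 of 12 in LL against LC, 10 of 10 in LC against Control and 5 of 7 in the interaction, but 0 of 9 in CL against CC and 0 of 4 in CC against Control. With only the groups compared, edgeR called 106 shared siRNAs in LC against CC, 375 in LL against CL, 0 in CL against CC, 0 in CC against Control, 199 in CL against Control and 143 in LL against Control. The cause of these shifts was not tested. DESeq2 called 260 in LL against CL, 189 in CL against CC, 380 for the interaction, and against Control 108 (CC), 144 (CL), 357 (LC) and 162 (LL). In CL against CC the count was 32 with TMM factors, 26 with RLE size factors, 28 with the siRNA total as library size and 31 with counts in at least 8 libraries. In CC against Control it was 7 with RLE size factors and 14 with the siRNA total, and in LL against Control 47 and 57. Without a filter CL against Control gave 21. These scalings moved the median log2 difference of all siRNAs by -0.18 to 0.19 (TMM factors), -0.15 to 0.15 (RLE size factors) and -0.14 to 0.34 (siRNA total).

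With the replicate number as a block, the counts were 8 in CL against CC, 2 in CC against Control and 12 in CL against Control, and within 1.5 times the main count elsewhere. Of 15 libraries, 7 were most like a library of their own number.

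Leaving out 1 library gave 194 to 260 calls in LC against CC, 13 to 40 in LL against CL, 3 to 18 in CL against CC, 193 to 285 in LL against LC and 111 to 216 for the interaction. Against Control it gave 1 to 12 (CC), 4 to 9 (CL), 118 to 211 (LC) and 5 to 13 (LL). For miRNA families in LL against CL it gave 4 to 13. Without novel_sir7618 the summed level was 21350 CPM in Control, 21935 in CC, 22333 in CL, 25333 in LC and 19252 in LL. With TMM factors it was 23987 in CL and 22422 in LL. With the siRNA total as library size it was 26471 in Control, 26067 in CC, 25004 in CL, 26198 in LC and 25372 in LL. Under this last scaling LL was no longer under CL. Since no siRNA count from 1 to 9 is listed, levels under about 1 CPM are limited by depth.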

Other observations

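Shared siRNAs with consecutive numbers in their names had more alike profiles than those with distant numbers. For the 394 pairs with consecutive numbers, the mean Pearson r of log2 levels over the 15 libraries was 0.368, and 20.8% of pairs had an r over 0.8. The mean was 0.195 for the 336 pairs 2 numbers apart, 0.112 for 3 to 5, 0.094 for 6 to 10, 0.078 for 11 to 50, 0.059 for 51 to 200 and 0.021 for the 1221655 pairs further apart. With the group means taken out, the mean of the consecutive pairs was 0.359. The libraries are shared by all pairs, pairs share siRNAs, and the sources used here do not say how the numbers were given. The pair novel_sir2526 and novel_sir2527 is one such example (r = 0.899).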
